A study of Mus musculus with 16 samples.

Results

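Among mouse hearts that received a mitochondrial base editor, the 2 hearts labelled 10X were set against the 1 heart labelled 5X and the 1 heart labelled 2X, pooled as 1 group. These are 4 of the 16 samples of the study, chosen by the names of their columns in the heart table, and every tRNA row of that table was examined. All hearts came from a mouse model that the labels call m.5024T, which carries a change in the gene that encodes mitochondrial tRNA-Ala. The 4 editor hearts (mice 17 and 18 for 10X, mouse 25 for 5X, mouse 26 for 2X) received AAV9-DdCBE, an adeno-associated virus of serotype 9 that carries a DddA-derived cytosine base editor, an enzyme that turns C into T in mitochondrial DNA. The 4 control hearts (mice 5 and 6 labelled 5X, mice 14 and 19 labelled 3X) received AAV9-GFP, the same type of virus with a fluorescent protein; they share the m.5024T model with the editor hearts and are given here as background. The sources used here do not explain what 2X to 10X stand for, and no meaning was assumed; they also give no age of the mice, no dose and no promoter for the editor. Each heart is a separate animal, but the 5X and 2X labels have 1 animal each, so a difference between those labels cannot be told apart from a difference between 2 mice. The tables hold tRNA rows only, so no marker gene of heart muscle or of another cell type was measured, and the tissue label was not checked.

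A tRNA reads a codon through its anticodon and brings the matching amino acid to the ribosome. Mitochondria make their proteins with their own set of tRNAs, transcribed from mitochondrial DNA as parts of long transcripts from both strands. The tRNAs of the cytosol come from many nuclear genes transcribed by RNA polymerase III, and genes with the same anticodon but a different body are called isodecoders. In the row names, tRNA-Cys-GCA-4 is the isodecoder numbered 4 among the nuclear tRNAs that carry cysteine with the anticodon GCA. For many anticodons a few isodecoders supply nearly all the molecules and the others are rare. mim-tRNAseq reads tRNAs over most of their length with a reverse transcriptase that passes modified bases, and separates isodecoders by their sequence. Isodecoders can differ at very few bases, so the count of a single row depends on how reads that fit several rows were assigned, a step the labels do not describe. The sum over an anticodon does not change when reads move between its own rows; whether reads were dropped or shared between anticodons is not known.

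The editor hearts had 3037178 counts (10X mouse 17), 2070246 counts (10X mouse 18), 1646074 counts (5X) and 2408333 counts (2X), and the AAV9-GFP hearts had 1540287 to 2718768. Of the 821 rows, 22 were mitochondrial, 267 nuclear and 532 of the class tRX, the annotation's name for tRNA-like genes of low confidence. The filter on low counts left 185 rows, namely 22 mitochondrial, 161 nuclear and 2 tRX. The 636 rows left out took at most 0.00584% of the counts of a heart, and 550 of the 821 were 0 in all 8 hearts. Mitochondrial rows took 59.9% of the counts in 10X mouse 17, 44.5% in 10X mouse 18, 39.2% with 5X and 38.9% with 2X, beside 37.4% to 43.3% in the AAV9-GFP hearts. Both 10X hearts thus lay above all the others, mouse 17 by far the most. The difference of 13.2 percentage points between the means (52.2 ± 10.9 in 10X against 39.0 ± 0.235 in 5X and 2X, SD, n = 2 each) had an exact two-sided permutation p of 0.333, the smallest that 2 hearts against 2 allow. Without mouse 17 the difference was 5.45 points. Mitochondrial rows were scaled on mitochondrial counts and nuclear rows on nuclear counts, each with its own TMM factor. Levels below are TMM-scaled CPM, counts relative to the scaled total of a heart's own class, and differences are log2 values, 10X minus 5X and 2X.

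The 10X hearts had much higher counts of rare nuclear isodecoders. In the edgeR quasi-likelihood test with Benjamini-Hochberg adjustment over all 185 rows, 59 rows passed the threshold of 0.05, which is 31.9% of the rows tested. Of these, 47 were higher in the 10X hearts (25.4% of the rows tested), namely 46 nuclear isodecoders and the row tRX-Glu-TTC-4, and 12 were lower (6.49%), all nuclear. The differences were very unequal in size. The 46 nuclear isodecoders that were higher had a median difference of 2.45 and ranged from 0.35 to 4.81; 42 of them differed by more than 2-fold and 28 by more than 4-fold. The 12 that were lower ranged from -0.58 to -0.32, with a median of -0.45, and none reached 2-fold. Without 10X mouse 17 the test called 28 rows (28 higher, 0 lower), without the 5X heart 31 (30 higher, 1 lower) and without the 2X heart 27 (26 higher, 1 lower). The count of lower rows rested on single hearts much more than that of higher rows. It was 29 without 10X mouse 18 and also 29 without AAV9-GFP mouse 14, 5 without AAV9-GFP mouse 5, 3 without AAV9-GFP mouse 6 and 1 without AAV9-GFP mouse 19. When nuclear rows were scaled on their total alone, 49 rows were higher and 2 lower. The mitochondrial share of the counts moved with the 10X label in the same hearts, and its part in these differences was not tested.

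The groups did not overlap for most of the rows tested. Both 10X hearts lay above the 5X and 2X hearts in 72 of the 185 rows (38.9%) and below them in 60 (32.4%). For all 46 nuclear isodecoders called higher, both 10X hearts also lay above the 4 AAV9-GFP hearts, whose values also enter the estimate of the spread; this was so for 57 of the 161 nuclear rows tested. Within the 10X group, mouse 17 was above mouse 18 in 43 of these 46 isodecoders, against 86 of all 161.

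The valine tRNAs with the anticodons AAC and CAC showed the pattern in full. tRNA-Val-AAC-4 stood at 569 and 330 CPM in the 10X hearts, 29.7 with 5X, 20.1 with 2X and at most 24.2 in the AAV9-GFP hearts. The difference was 4.18 (SE 0.40, edgeR adjusted p = 3.19e-04), and the 10X hearts lay more than 10-fold above every other heart. tRNA-Val-AAC-3 had 784 and 478 CPM in the 10X hearts against 43.1 with 5X and 60.9 with 2X (difference 3.59). For this isodecoder the 5X heart lay just below the range of the AAV9-GFP hearts, 46.4 to 58.2, and the 2X heart just above it. tRNA-Val-AAC-2 had 1766 and 1121 CPM against 174 and 214 (difference 2.89), with 124 to 155 in the AAV9-GFP hearts. For anticodon CAC, tRNA-Val-CAC-1 had 871 and 477 CPM in the 10X hearts, 65.1 with 5X and 69.5 with 2X, a difference of 3.32. tRNA-Val-CAC-3 had 1355 and 704 CPM against 110 and 115, a difference of 3.19. All 3 rare isodecoders tested for AAC and all 3 for CAC were higher in the 10X hearts, whereas the leading rows did not pass. tRNA-Val-AAC-1/5, 1 row for 2 genes that cannot be separated, had 8410 and 7317 CPM in the 10X hearts, 7146 with 5X and 12571 with 2X, so the groups overlapped (difference -0.33, SE 0.35, edgeR adjusted p = 0.510).

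Cysteine tRNAs held the widest difference of the comparison. tRNA-Cys-GCA-4 had 2387 and 971 CPM in the 10X hearts, 84.2 with 5X, 36.6 with 2X and 19.0 to 31.0 in the AAV9-GFP hearts. It was 4.81 higher on the log2 scale (SE 0.56, 95% interval 3.52 to 6.10, edgeR adjusted p = 4.55e-04), a 28.1-fold difference. The counts behind it were 3202 and 1196 in the 10X hearts against 88 and 51. Of the 9 tRNA-Cys-GCA rows tested, 6 were higher and 0 lower; besides GCA-4 these were GCA-8 (3.995), GCA-6 (3.37), GCA-9 (2.77), GCA-5 (2.31) and GCA-1 (1.97). GCA-6 and GCA-9 rested on few molecules: GCA-6 had 78 and 26 counts in the 10X hearts, 7 with 5X and 2 with 2X. These 2 rows and tRX-Glu-TTC-4 (28 and 27 counts against 6 and 9) passed the filter only through the 10X hearts, so that they could hardly have been tested without a difference; without them 4 of 7 tRNA-Cys-GCA rows were higher. The leading isodecoder tRNA-Cys-GCA-3 had 10634 and 12397 CPM in the 10X hearts and 12817 and 12684 in the 5X and 2X hearts, a difference of -0.15 that did not pass (edgeR adjusted p = 0.495).

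Rare isodecoders for glycine, histidine, asparagine and alanine were also among the 10 higher rows with the smallest adjusted p (edgeR adjusted p = 3.19e-04 to 6.29e-04 for the 10). tRNA-Gly-CCC-2 had 1047 and 774 CPM in the 10X hearts, 84.2 with 5X, 30.8 with 2X and 18.4 to 20.2 in the AAV9-GFP hearts (a 16.0-fold difference, SE 0.44 on the log2 scale). Here the order of the hearts was the same as for tRNA-Cys-GCA-4, with the 5X heart above the 2X heart and both above the AAV9-GFP hearts. tRNA-His-GTG-3 had 312 and 177 CPM against 23.9 and 13.6, with 8.84 to 18.5 in the AAV9-GFP hearts (difference 3.72, SE 0.46). tRNA-Asn-GTT-2 had 1052 and 654 CPM against 107 and 132 (difference 2.83, SE 0.29), and the AAV9-GFP hearts, at 135 to 159, lay above both the 5X and the 2X heart. tRNA-Ala-AGC-10, a cytosolic alanine tRNA unrelated to the mitochondrial gene, had 1029 and 645 CPM against 125 and 73.8 (difference 3.08, SE 0.36). In each of these rows both 10X hearts lay well above every other heart. Their leading isodecoders were tRNA-Gly-CCC-1 at -0.39, tRNA-His-GTG-2 at -0.09, tRNA-Asn-GTT-3 at -0.02 and tRNA-Ala-AGC-4 at -0.59, and none of them passed. Of these, His-GTG-2 and Asn-GTT-3 were 0.04 and 0.11 above 0 when scaled on the nuclear total alone.

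**Figure D1:**
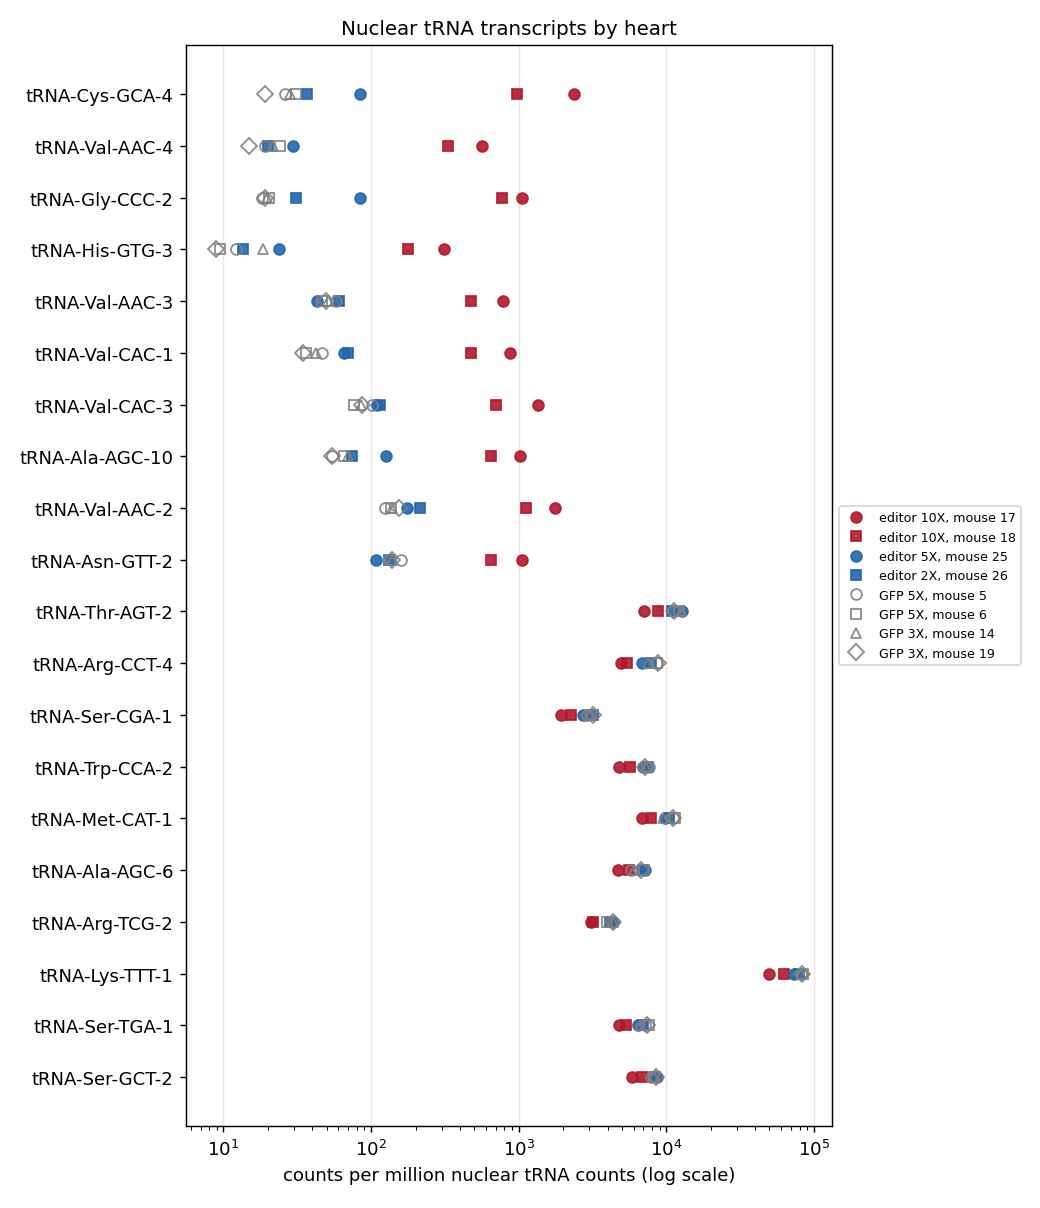
Level of the 10 nuclear tRNA isodecoders higher in the 10X hearts and the 10 lower with the smallest adjusted p, in TMM-scaled CPM of nuclear tRNA counts (log axis), 1 point per heart; red marks the 10X hearts, blue the 5X and 2X hearts and grey outlines the AAV9-GFP hearts. In the upper 10 rows the red points stand far to the right of all others (tRNA-Cys-GCA-4 at 2387 and 971 against 84.2 and 36.6), while in the lower 10 rows they stand slightly to the left (tRNA-Thr-AGT-2 at 7077 and 8741 against 12742 and 10960).

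The size of the difference went with how rare an isodecoder was in the AAV9-GFP hearts, which are not part of the contrast. Rows that held under 10% of their anticodon's counts there (minor isodecoders) numbered 179, of which 76 were tested, 45 were higher and 0 lower, with a median difference of 1.24. Over all 161 nuclear rows tested 46 were higher and 12 lower, with a median of -0.02. Among the rows under 1%, 46 were tested, 30 were higher and 0 lower, with a median of 2.29. Without the 2 rows that passed the filter only through the 10X hearts, tRNA-Cys-GCA-6 and GCA-9, the counts were 43 of 74 (median 1.22) and 28 of 44 (median 2.14). The 48 leading isodecoders tested, the row with the most counts of each anticodon, gave 0 higher and 8 lower calls and a median of -0.27, with 42 of 48 below 0. These values depend on the scaling: on the nuclear total alone, the median of all nuclear rows tested was 0.11 in place of -0.02. In that scaling 2 rows in all were called lower, in place of 12. The 37 rows in between gave 1 higher and 4 lower calls, with a median of -0.12. None of the 46 isodecoders called higher led its anticodon, and their share of it in the AAV9-GFP hearts was 22.5% at most and 0.373% at the median. Part of this is arithmetic, since the anticodon sums given below lay between -0.21 and 0.26 with TMM factors of their own. With the factors of the rows they lay between -0.34 and 0.11. A row that holds most of its anticodon cannot rise several-fold while the sum stays near 0. In 27 of the 41 anticodons with more than 1 tested row, every other row lay above the leading row.

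Minor isodecoders together made up 9.52% and 7.49% of the nuclear and tRX counts in the 10X hearts. Their part was 4.06% with 5X, 3.80% with 2X and 3.23% to 4.32% in the AAV9-GFP hearts. The rows under 1% of their anticodon took 3.22% and 2.14% in the 10X hearts, 0.519% with 5X, 0.367% with 2X and 0.308% to 0.414% in the AAV9-GFP hearts. By both sums the 10X hearts stood clear of the other 6. The leading rows had a smaller part in the 10X hearts, 69.1% and 71.7% against 75.2% with 5X, 75.7% with 2X and 74.7% to 76.7% in the AAV9-GFP hearts.

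**Figure D2:**
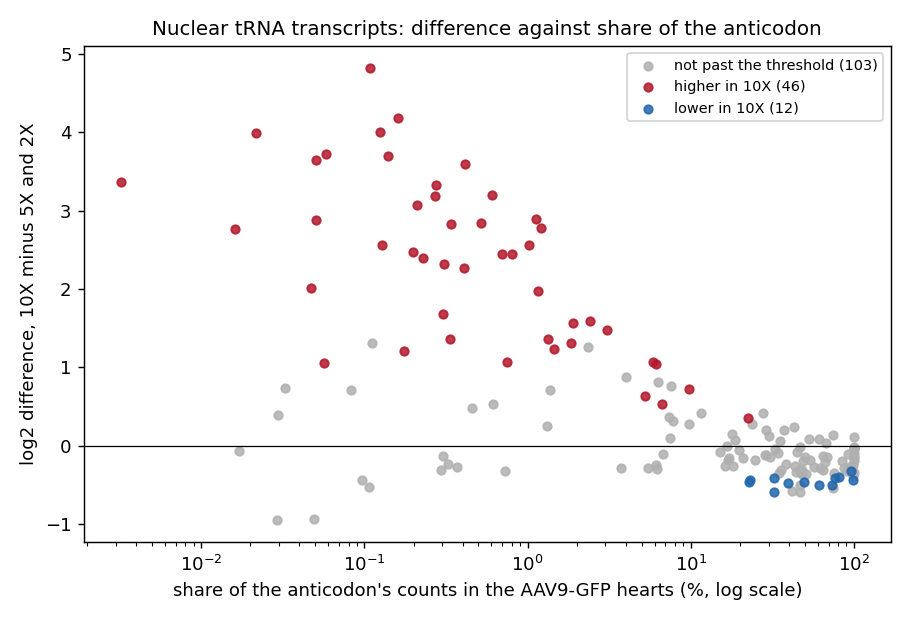
Difference of each of the 161 tested nuclear tRNA isodecoders (log2, 10X minus 5X and 2X) against its share of its anticodon's counts in the AAV9-GFP hearts (percent, log axis); red points were higher in the 10X hearts, blue points lower and grey points did not pass. Red points lie at small shares and reach 4.81, and blue points lie at shares above 20% and at differences no lower than -0.58.

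Not every rare isodecoder was higher. Of the 76 minor isodecoders tested, 31 did not pass; 15 of these lay below 0, and they ranged from -0.94 (tRNA-Thr-AGT-7) to 1.31 (tRNA-Arg-TCT-4). The 46 isodecoders called higher came from 22 of the 48 anticodons with a tested nuclear row, and the other 26 anticodons had none. By amino acid family the counts were as follows, beside 46 higher (28.6%) and 12 lower (7.45%) of all 161 nuclear rows tested. Valine had 6 of 9 tested rows higher and cysteine 6 of 9, or 4 of 7 without GCA-6 and GCA-9. Alanine had 6 of 16 higher and 1 lower, glutamine 4 of 8 higher and glycine 3 of 9. For asparagine, histidine and phenylalanine 2 of 3 rows each were higher, and lysine had 2 of 9 higher and 1 lower. Arginine had 2 of 19 higher and 3 lower, threonine 3 of 13 higher and 1 lower, and serine 2 of 12 higher and 3 lower. Leucine had 2 of 15 higher and isoleucine 1 of 5. Elongator methionine had 2 of 5 higher and 1 lower, and tryptophan 1 of 4 higher and 1 lower. Initiator methionine had 0 of 3 higher and 1 lower, and the 1 selenocysteine row was not called. Aspartate (3 rows tested), glutamate (5), proline (4) and tyrosine (3) had no row called in either direction. The 30 tested tRNAs whose anticodon starts with A, a base that is converted to inosine in the mature tRNA, had 12 higher and 2 lower calls and a median of -0.02. The 27 tested tRNAs for leucine and serine, which carry a long variable arm, had 4 higher and 3 lower and a median of -0.04.

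Further isodecoders called higher belonged to other anticodons. The elongator tRNA-Met-CAT-4 was 3.69 higher, tRNA-Asn-GTT-1 3.65, tRNA-Thr-AGT-6 3.19, tRNA-Ile-AAT-3 2.56, tRNA-Leu-CAA-4 2.56, tRNA-Thr-CGT-4 2.48 and tRNA-Lys-TTT-2 2.45. Lys-TTT-2 was the most abundant of these, with 4750 and 3682 CPM in the 10X hearts against 907 with 5X and 634 with 2X. tRNA-Ala-AGC-5 had 4396 and 3590 CPM against 710 and 405, a difference of 2.84; both editor hearts with the lower labels lay above the AAV9-GFP hearts (92.4 to 274). The smallest difference called was tRNA-Gln-CTG-3 at 0.35 (edgeR adjusted p = 0.0487), with 10086 and 10408 CPM against 8449 and 7602. It is also the row of this set with the largest share of its anticodon.

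The 5X and 2X hearts also differed from the AAV9-GFP hearts for part of these isodecoders. Among the 46, the 5X heart lay above all 4 AAV9-GFP hearts in 20, within their range in 23 and below it in 3. The 2X heart lay above in 15, within in 27 and below in 4. Over all 161 nuclear rows tested the 5X heart lay above in 33 and the 2X heart in 30. The 5X heart was above the 2X heart in 32 of the 46, against 82 of 161. With 1 heart for each label, these orders are descriptions of 2 hearts and have no test.

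The 12 isodecoders that were lower in the 10X hearts were mostly abundant, and 8 of them led their anticodon. tRNA-Thr-AGT-2 had 7077 and 8741 CPM in the 10X hearts, 12742 with 5X and 10960 with 2X (difference -0.58, SE 0.14, edgeR adjusted p = 0.0148). tRNA-Lys-TTT-1, which holds 99.0% of its anticodon in the AAV9-GFP hearts, had 49843 and 62609 CPM in the 10X hearts, 73354 with 5X and 78783 with 2X (difference -0.44, SE 0.12, edgeR adjusted p = 0.0267). tRNA-Met-CAT-1 had 6894 and 7846 CPM against 9754 and 10499 (difference -0.46). It narrowly led the elongator methionine rows, with 47.3% to 50.8% of the anticodon in the AAV9-GFP hearts. tRNA-Met-CAT-2 held 42.9% to 45.3% there. For all 12 rows both 10X hearts lay below the other 6 hearts, as they did for 39 of the 161 nuclear rows tested. The other named ones were tRNA-Arg-CCT-4 (-0.50), tRNA-Ser-CGA-1 (-0.49), tRNA-Trp-CCA-2 (-0.47), tRNA-Ala-AGC-6 (-0.45), tRNA-Arg-TCG-2 (-0.44), tRNA-Ser-TGA-1 (-0.41) and tRNA-Ser-GCT-2 (-0.41). tRNA-Arg-CCG-3 (-0.39) and tRNA-iMet-CAT-1 complete the 12. Scaled on the nuclear total alone, 2 rows in all were called lower. The other 4 of the 12 did not lead their anticodon, and the rows that did lead there did not pass: tRNA-Ala-AGC-4 was at -0.59, tRNA-Thr-AGT-1 at -0.35, tRNA-Arg-TCG-3 at 0.06 and tRNA-Ser-GCT-3/4 at 0.04.

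Of the 3 initiator tRNA-Met rows tested, which start every cytosolic protein, 1 passed. tRNA-iMet-CAT-1 had 21026 and 24586 CPM in the 10X hearts against 28232 with 5X and 28608 with 2X (difference -0.32, SE 0.10, edgeR adjusted p = 0.0487). tRNA-iMet-CAT-2 was at -0.43 and tRNA-iMet-CAT-3 at -0.28, and neither passed. The selenocysteine tRNA, tRNA-SeC-TCA-1, had 1853 and 2186 CPM against 2392 and 2210; the groups did not overlap, but the difference of -0.19 did not pass (edgeR adjusted p = 0.358).

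Summed per anticodon, the nuclear tRNAs showed no difference that passed. The sums were scaled with TMM factors of their own, which put them 0.13 (median) above where the factors of the single rows put them, so both scalings are given. Of the 73 sums tested 0 passed (0%) in the edgeR quasi-likelihood test. At an unadjusted p under 0.05 there were 5, of which 3 were nuclear, 1 mitochondrial and 1 tRX. DESeq2 called 2 sums, tRNA-Gly-TCC and tRX-Glu-TTC, and edgeR on the 4 editor hearts alone called 1, tRX-Glu-TTC. The tested row of tRX-Glu-TTC passed the filter only through the 10X hearts, so it could hardly have been tested without a difference. With the factors of the rows, a choice added after the data were seen, 0 sums passed and 9 had an unadjusted p under 0.05. The 48 nuclear sums lay between -0.21 (tRNA-Val-TAC) and 0.26 (tRNA-Asp-GTC), and 47 of them within 0.25 of 0. With the factors of the rows they lay between -0.34 (tRNA-Val-TAC) and 0.11 (tRNA-Gly-TCC), 41 of 48 below 0 and 41 within 0.25 of it, with a median of -0.12 in place of 0.02. tRNA-Gly-TCC had 19141 and 18991 CPM in the 10X hearts against 16161 and 16099 (difference 0.24, 95% interval 0.07 to 0.42). With the factors of the rows it was at 0.11 (95% interval -0.10 to 0.32). tRNA-iMet-CAT was at -0.19, and at -0.32 with the factors of the rows. tRX-Glu-TTC, at 23.7 and 23.1 CPM against 5.88 and 6.25, was at 1.92 (edgeR adjusted p = 0.167), and at 1.78 with the factors of the rows. The intervals were not all narrow: that of tRNA-Asp-GTC ran from -1.05 to 1.57. Its hearts differed widely within every group. The 10X hearts had 41465 and 23477 CPM, the 5X and 2X hearts 16606 and 37733, and the AAV9-GFP hearts 14956 to 39876. A p above the threshold does not show that the sums were equal.

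For the anticodons of the most changed isodecoders, the sums moved far less than the rows. The tRNA-Cys-GCA sum was 29228 and 28637 CPM in the 10X hearts, 26370 with 5X and 23968 with 2X, a difference of 0.20 (95% interval -0.14 to 0.54) beside 4.81 for GCA-4. The tRNA-Gly-CCC sum was 13117 and 14224 CPM against 13804 and 14836, a difference of -0.07 (95% interval -0.33 to 0.20) beside 4.002 for CCC-2. For tRNA-Val-AAC the sum differed by 0.19 (95% interval -0.62 to 0.998). The sums of tRNA-Asn-GTT, tRNA-Val-CAC, tRNA-His-GTG and tRNA-Ala-AGC were at 0.16, 0.13, 0.07 and 0.05. On the scaling of the rows themselves, the sums were at 0.07 for tRNA-Cys-GCA, -0.20 for tRNA-Gly-CCC, 0.04 for tRNA-Val-AAC, 0.02 for tRNA-Asn-GTT, -0.02 for tRNA-Val-CAC, -0.06 for tRNA-His-GTG and -0.08 for tRNA-Ala-AGC, so the signs of the last 3 turned.

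**Figure D3:**
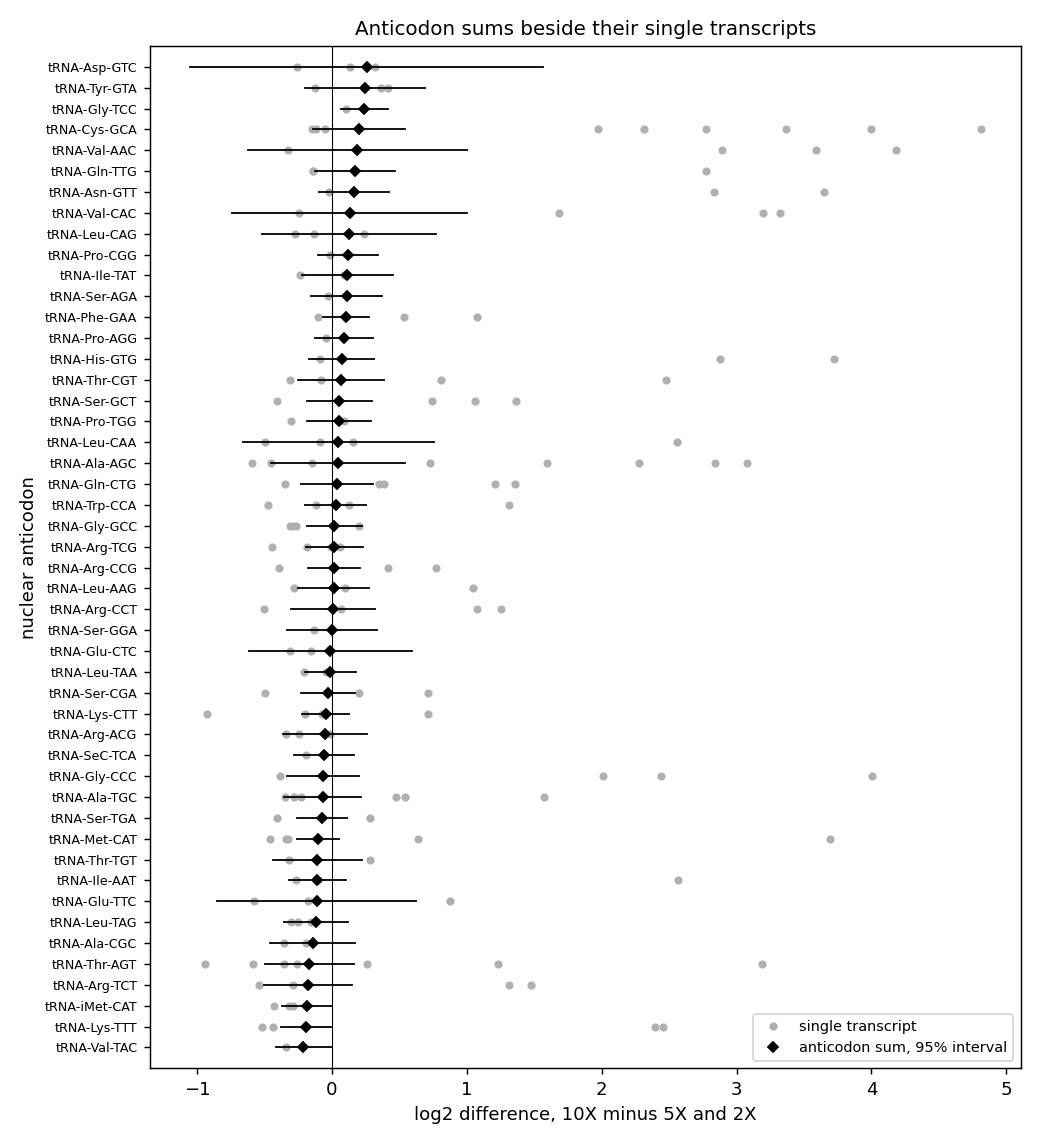
Difference (log2, 10X minus 5X and 2X) of each of the 48 nuclear anticodon sums (black diamonds, bars for the 95% interval) and of the single isodecoders tested for that anticodon (grey points); sums and rows each have their own TMM factors, which set the sums 0.13 higher at the median. The diamonds lie between -0.21 and 0.26, while single isodecoders reach 4.81.

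The makeup of an anticodon was tested directly, each isodecoder against its anticodon as a whole, the row itself included. In edgeR's diffSpliceDGE, 45 of 154 isodecoders changed their part of the anticodon, all 45 upwards (29.2% of those tested). The 45 include tRNA-Cys-GCA-6 and tRNA-Cys-GCA-9, which passed the filter only through the 10X hearts and could hardly have been tested without a difference. A row that holds most of its anticodon is there compared largely with itself and could hardly be called lower. The lack of lower calls therefore shows nothing about such rows. limma on the log2 ratio of a row to the rest of its anticodon, an alternative chosen after the data were seen, called 92, of which 62 were higher and 30 lower. For example, the leading row tRNA-Asn-GTT-3 was at -0.046 in diffSpliceDGE and at -3.05 with limma. The share of tRNA-Cys-GCA-4 in its anticodon was 9.28% and 3.57% in the 10X hearts, 0.327% with 5X, 0.148% with 2X and 0.0894% to 0.138% in the AAV9-GFP hearts. tRNA-Gly-CCC-2 made up 9.08% and 5.73% against 0.625% and 0.201%, and tRNA-Met-CAT-4 6.38% and 3.86% against 0.502% and 0.179%. tRNA-Thr-AGT-6, tRNA-Lys-TTT-2, tRNA-Asn-GTT-1 and tRNA-Ile-AAT-3 were also among the 10 with the smallest adjusted p. Lys-TTT-2 went from 1.22% with 5X and 0.796% with 2X to 8.45% and 5.47% in the 10X hearts.

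The share of a leading row differed most in the valine anticodon AAC. tRNA-Val-AAC-1/5 held 72.9% and 79.1% of its anticodon in the 10X hearts, 96.7% with 5X, 97.7% with 2X and 97.0% to 98.5% in the AAV9-GFP hearts. Its rare partners tRNA-Val-AAC-2, AAC-3 and AAC-4 held 15.3%, 6.80% and 4.93% in 10X mouse 17. tRNA-Gly-CCC-1 went from 98.0% and 99.1% in the 5X and 2X hearts to 83.3% and 89.3% in the 10X hearts. diffSpliceDGE, in which such a leading row is compared largely with itself, called neither row lower. limma called both lower (adjusted p = 0.00120 for each). The 10 rows that lay below their anticodon as a whole with the smallest p included tRNA-Trp-CCA-2, which held 29.0% and 31.5% against 38.4% and 39.7%. Among them, tRNA-Arg-CCT-4 held 51.4% and 61.2% against 75.2% and 70.4%, and tRNA-Ser-GCT-2 24.0% and 29.2% against 33.6% and 33.0%. tRNA-Ala-AGC-4 held 37.8% and 46.0% against 59.5% and 60.2%, but the AAV9-GFP hearts spanned 36.4% to 64.8%. tRNA-Lys-CTT-14 and tRNA-Thr-AGT-7 held at most 0.0675% of their anticodon in every heart. tRNA-Ser-CGA-1 held 44.7% and 51.3% against 60.9% and 59.9%, tRNA-Arg-TCG-2 20.2% and 20.1% against 27.2% and 23.3%, and tRNA-Leu-CAA-3 33.2% and 37.3% against 46.5% and 45.5%. None of the 10 passed in diffSpliceDGE (edgeR adjusted p = 0.357 to 0.503).

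**Figure D4:**
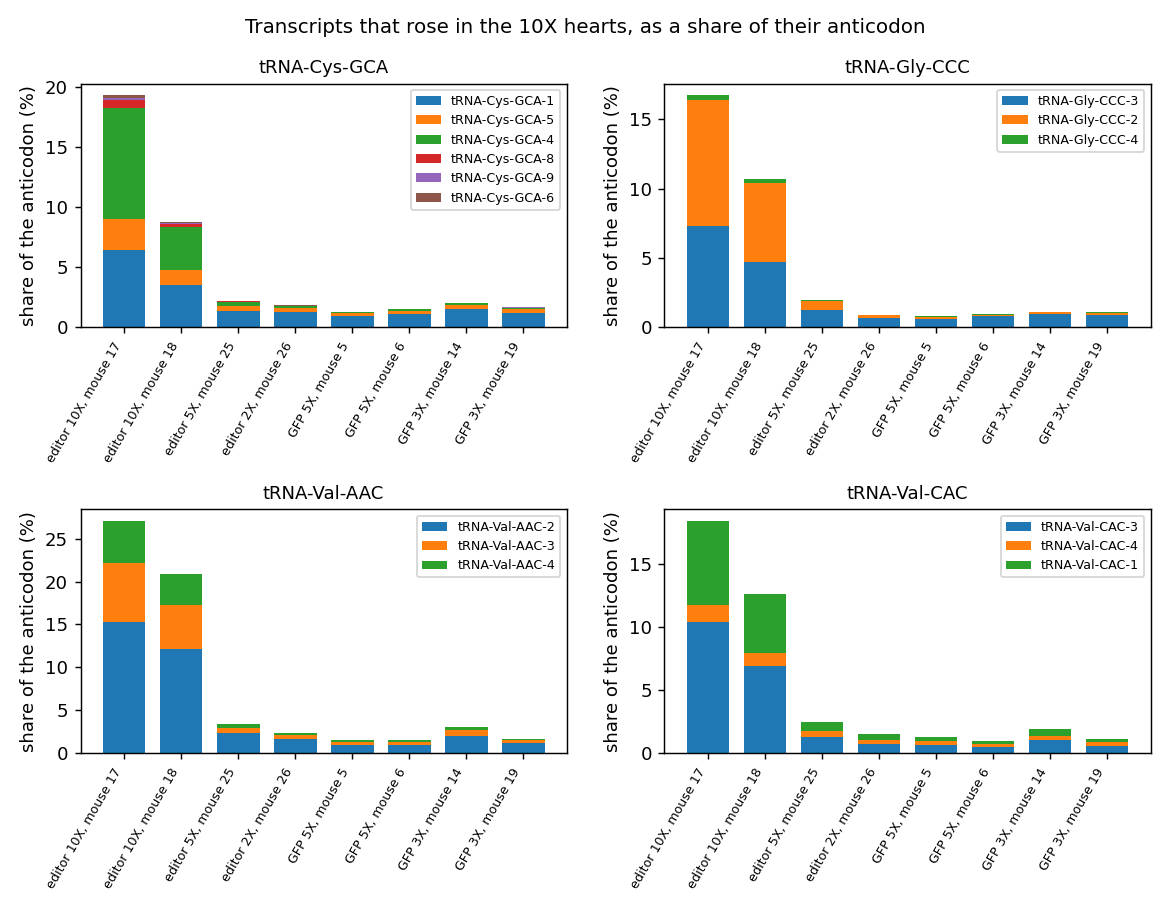
Share (percent, stacked bars starting at 0) that the isodecoders called higher hold in their anticodon, in each of the 8 hearts, for tRNA-Cys-GCA, tRNA-Gly-CCC, tRNA-Val-AAC and tRNA-Val-CAC. The bars of the 10X hearts stand several times higher than those of the other 6, with mouse 17 above mouse 18 in each panel (tRNA-Val-AAC-2 alone at 15.3% and 12.1% against 2.36% and 1.67%).

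No mitochondrial tRNA passed. Of the 22 rows, 0 passed in the edgeR quasi-likelihood test, 2 had an unadjusted p under 0.05 and DESeq2 called 0. Other settings did call some: the 4 editor hearts alone gave mt-tRNA-Ala, mt-tRNA-Cys and mt-tRNA-Gln, and leaving out AAV9-GFP mouse 14 gave mt-tRNA-Asp, mt-tRNA-Cys and mt-tRNA-Gln. With 1 scaling over mitochondrial and nuclear rows, mt-tRNA-Ala, Asp, Gly, Ile, Leu-TAA, Ser-GCT and Tyr passed. In 8 rows both 10X hearts lay above the 5X and 2X hearts, in 3 below, and in 11 the groups overlapped, beside 38.9% of all 185 rows above and 32.4% below. mt-tRNA-Ala, the tRNA whose gene carries the change of the model, had 11233 and 11143 CPM of the mitochondrial counts in the 10X hearts, 9027 with 5X, 4463 with 2X and 2000 to 5141 in the AAV9-GFP hearts. The 10X hearts were alike, and the 5X heart lay nearer to them than to the 2X heart. The difference was 0.73 (SE 0.43, 95% interval -0.26 to 1.72, edgeR adjusted p = 0.228). It was 0.31 without the 2X heart and 1.33 without the 5X heart, neither past the threshold. With the 4 editor hearts alone it was 0.65 and passed (edgeR adjusted p = 0.0156), in a fit that left 2 residual degrees of freedom, against 5 in the main fit. With 1 scaling over mitochondrial and nuclear rows together it was 1.30 and passed (edgeR adjusted p = 0.0478). As a share of the mitochondrial counts, mt-tRNA-Ala took 1.05% (95% Wilson interval 1.03% to 1.06%) and 1.10% (1.08% to 1.12%) in the 10X hearts, 0.921% (0.898% to 0.945%) in the 5X heart and 0.450% (0.437% to 0.464%) in the 2X heart. The exact two-sided permutation p for the difference of 0.387 percentage points was 0.333, again the smallest possible, and the AAV9-GFP hearts had 0.202% to 0.539%. These intervals cover counting error only. In bulk tissue, fewer cells of a type and less RNA per cell cannot be told apart.

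The other mitochondrial tRNAs with the smallest p went both ways. mt-tRNA-Cys, encoded near tRNA-Ala on the same strand, had 9983 and 13207 CPM in the 10X hearts, 18804 with 5X and 14671 with 2X. Its range in the AAV9-GFP hearts was 13360 to 19346. The difference was -0.53 (edgeR adjusted p = 0.108), and mt-tRNA-Cys passed with the 4 editor hearts alone. mt-tRNA-Asp was at 0.29 (73864 and 75345 CPM against 64246 and 57547), mt-tRNA-Tyr at 0.26 and mt-tRNA-Leu-TAA at 0.27, all with both 10X hearts above the 5X and 2X hearts. mt-tRNA-Gln was at -0.73 (95% interval -1.56 to 0.09), also past the threshold with the 4 editor hearts alone, with 6526 and 5829 CPM against 7362 and 13135. In the AAV9-GFP hearts it had 6012 to 12171 CPM, so 10X mouse 17 lay within their range and 10X mouse 18 below it. The 8 tRNAs of the strand that holds Ala had a median of -0.01, the 14 of the other strand 0.12 and the 4 neighbours of Ala (Trp, Asn, Cys and Tyr) -0.03, with 0 calls in each list. Over all 22 the median was 0.06 with separate scaling, against 0.63 with 1 scaling over all rows, where mitochondrial rows keep the higher mitochondrial share of the 10X hearts.

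**Figure D5:**
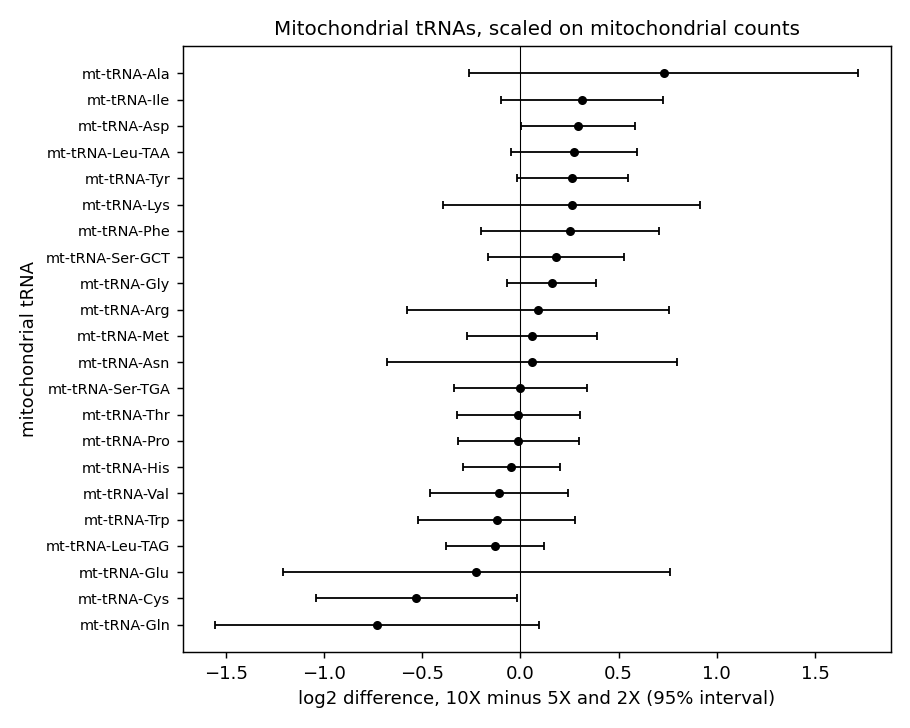
Difference of each of the 22 mitochondrial tRNAs (log2, 10X minus 5X and 2X, scaled on mitochondrial counts), with bars for the 95% interval. mt-tRNA-Ala has the highest value, 0.73, and the widest reach upwards, to 1.72; mt-tRNA-Gln has the lowest, -0.73.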

How the data were processed

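The heart table holds raw read counts for each tRNA row, as whole numbers that the authors deposited without normalization. The labels' protocols describe total RNA kept under mild acid, then oxidised and beta-eliminated, and libraries made by mim-tRNAseq. The submitters' processing notes name cutadapt 3.5 and mm39; the aligner, the counter and the handling of shared reads were not given in the sources used here. All 8 hearts entered 1 fit in edgeR 4.0.16 (R 4.3.3) with 3 groups (10X, 5X with 2X, AAV9-GFP), filterByExpr (minimum count 10, minimum total 15), glmQLFit and glmQLFTest; 5 residual degrees of freedom remained. The offset of a row was the total of its class times that class's TMM factor (computed separately for rows and for sums), tRX rows with the nuclear. Isodecoder proportions were tested with diffSpliceDGE. Alternatives used DESeq2 1.42.0, limma 3.58.1 (pseudocount 0.5), other scalings and filters, and left out each heart. The scripts were tested on simulated data. Shares of counts were compared by exact permutation tests. Rows named were mt-tRNA-Ala, the 5 other mitochondrial tRNAs and the 5 sums with the smallest p, the 10 higher and 10 lower nuclear rows with the smallest adjusted p, their leading rows and sums, 10 rows in each direction for the proportions, initiator tRNA-Met and tRNA-SeC. Any other row named served as an example and was picked with its values known. Members and lists were chosen with earlier results of these data known. Replicate hearts differed beyond sampling noise: chi-square over its degrees of freedom was 778 for the 10X pair and 203 for the 5X and 2X pair.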

Additional observations from a re-analysis of the deposited data

Results flagged for a closer look

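In 10 of the 51 named rows and sums tested, 1 AAV9-GFP heart stood apart from the other 3 (the gap to its nearest neighbour, over the whole range, was above Dixon's 95% critical value for 4 samples). Chance gives about 1 in 20 for a single row. The 51 share the same 4 hearts and are not independent, so that rate is no measure for their count. In 8 of the 10 it was mouse 14, the heart with the fewest counts. These hearts are not in the contrast but share its estimate of the spread, and without mouse 14 the test called 80 rows (51 higher, 29 lower) and also mt-tRNA-Asp, mt-tRNA-Cys and mt-tRNA-Gln. The cause was not tested.

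Mouse 14 was highest for mt-tRNA-Cys, at 19350 CPM against 14100 in the next heart, and for mt-tRNA-Asp, at 69480 against 58530. It was lowest for mt-tRNA-Gln, at 6012 against 11290. Among nuclear rows it was lowest for tRNA-Arg-CCT-4 (7518 against 8633), tRNA-Met-CAT-1 (9524 against 11150), tRNA-Val-AAC-1/5 (6844 against 12960), tRNA-Val-CAC-2 (7724 against 15290) and tRNA-Leu-CAA-3 (2968 against 5585). For both valine rows the 5X editor heart also had low values, 7146 for AAC-1/5 and 8145 for CAC-2.

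The other 2 rows involved other hearts. tRNA-Arg-TCG-2 was lowest in mouse 6, at 3963 CPM against 4325. tRNA-Ala-AGC-4 was highest in mouse 5, at 24950 against 9728, which is the level of the 5X and 2X editor hearts (25602 and 24993), while the 10X hearts had 14175 and 19468.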

How the results depend on the processing

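All 47 higher and all 12 lower rows kept their sign in every alternative that tested them. The 10 named higher rows kept their call in all alternatives (2.45 to 5.52); of the 10 named lower rows 0 did (-0.79 to -0.28), and 2 did apart from leaving out hearts. Without 1 heart, 27 to 80 transcripts, 0 to 0 sums and 38 to 54 proportions were called; mt-tRNA-Ala ranged from 0.31 to 1.33, the mitochondrial share difference from 5.45 to 20.9 points and the Ala share difference from 0.151 to 0.622. Sums called numbered 1 with the 4 editor hearts alone and 2 with DESeq2, and 0 with the factors of the rows (added after the data were seen). The first 2 of these counts include tRX-Glu-TTC, whose tested row passed the filter only through the 10X hearts. Proportions called numbered 92 with limma. mt-tRNA-Ala passed with the editor hearts alone (0.65) and with 1 TMM over all rows (1.30). Scaling on totals gave 96.1% of calls higher, against 79.7%, and a nuclear median of 0.11 against -0.02. Signs turned for uncalled leading rows: tRNA-Ser-GCT-3/4 at -0.020 (editor hearts alone) and -0.0029 (1 TMM), tRNA-Asn-GTT-3 at 0.11 and tRNA-His-GTG-2 at 0.038 (totals). Leaving out hearts turned others: tRNA-Ser-GCT-3/4 ranged from -0.037 (without 10X mouse 17) to 0.070, tRNA-Arg-TCG-3 from -0.068 (without 5X) to 0.23, and, each highest without 2X, tRNA-Val-AAC-1/5 from -0.68 to 0.17, tRNA-Asn-GTT-3 from -0.16 to 0.16 and tRNA-Val-CAC-2 from -0.62 to 0.28. The cause was not tested. No paired analysis was possible because the 4 editor hearts come from separate mice and the labels name no pairs.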

Other observations

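The study's 8 libraries of mouse embryonic fibroblasts, counted in a separate table, allow the makeup of an anticodon to be set beside that of the hearts as a description, with no test. Of the 46 nuclear isodecoders higher in the 10X hearts, 45 had a row there. Their median share of the anticodon in fibroblasts lay above both the 5X and the 2X heart for 36 of the 45, and above both 10X hearts for 9. Among the 65 other isodecoders that do not lead their anticodon, it lay above the 5X and 2X hearts for 31 and above both 10X hearts for 30. The 45 were called partly through low 5X and 2X values, so these counts favour them. Against the AAV9-GFP hearts, which are outside the contrast, the fibroblast median lay above all of them for 36 of the 45 and for 27 of the 65. tRNA-Val-AAC-2 held 10.8% of its anticodon at the fibroblast median, beside 15.3% and 12.1% in the 10X hearts and 2.36% and 1.67% in the 5X and 2X hearts. tRNA-Gly-CCC-2 held 3.62%, beside 9.08% and 5.73% in the 10X hearts. tRNA-Cys-GCA-4 held 0.612%, between the 0.327% and 0.148% of the 5X and 2X hearts and the 9.28% and 3.57% of the 10X hearts. Other isodecoders did not share this: tRNA-Lys-TTT-3 held 0.142% in fibroblasts, below the 0.394% and 0.233% of the 5X and 2X hearts, and rose to 2.84% and 1.36% in the 10X hearts. No marker of fibroblasts or other cells was measured in these tables, and the part of cell makeup in the difference was not tested.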
